A study of Drosophila melanogaster with 2 samples.

Results

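Distal intergenic peaks of the zinc-finger protein CG1603 were taken from the authors' list of peaks reproducible between replicates. They were the peaks whose summit lay more than 2000 bp from every annotated transcription start site (TSS), outside every protein-coding gene body and outside the exons of any gene, with pseudogenes and transposons left out of the annotation. There were 929 such peaks among 8963 reproducible peaks (10.4%). Chromatin immunoprecipitation was carried out on whole *Drosophila melanogaster* embryos, 0 to 16 h old and of both sexes pooled, from a transgenic line that carries CG1603 with GFP at its C-terminal end. All embryos carried the tagged protein, and no untreated or wild-type group was analysed. The 1 group held 2 biological replicates, numbered 2 and 3. The labels name both GFP and CG1603 as the target of the antibody, and GFP was assumed. The labels name no promoter for the tagged insertion, and whole embryos mix all cell types, so a peak cannot be placed in a tissue.

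Intergenic sequence far from promoters holds enhancers, silencers and insulators, which act on genes at a distance and are bound by sequence-specific factors. CTCF and Su(Hw) are zinc-finger proteins that bind insulators, DREF and M1BP bind the DRE and Motif 1 elements of housekeeping promoters, and GATA factors bind enhancers in many tissues. CG1603 has been linked to the expression of nuclear genes that serve mitochondria.

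The sequences at the strongest sites show what lay under the summits of highest signal. Peaks are named by their rank in the reproducible list, with rank 1 the highest signal. Each sequence covers the summit and 50 bp to either side on the plus strand of dm6, read 5′ to 3′ from the RefSeq release 6 assembly. Capitals mark CTCF words, DREs and Motif 1. Among these 5 of the strongest peaks, only peak 135, in the gap between slp1 and slp2, held such a word, with 2 copies of Motif 1 in the same direction.
peak 36, chr3R:3789760-3789860: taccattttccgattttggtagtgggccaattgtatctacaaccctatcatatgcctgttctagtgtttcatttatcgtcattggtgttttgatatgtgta
peak near CG31668, chr2L:2202368-2202468: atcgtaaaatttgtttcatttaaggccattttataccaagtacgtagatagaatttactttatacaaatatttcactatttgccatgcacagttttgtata
peak 114, chr3R:5113229-5113329: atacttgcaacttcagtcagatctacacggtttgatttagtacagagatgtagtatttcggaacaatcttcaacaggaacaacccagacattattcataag
peak 135, chr2L:3832468-3832568: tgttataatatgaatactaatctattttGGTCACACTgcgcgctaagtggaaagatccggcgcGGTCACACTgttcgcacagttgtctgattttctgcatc
peak 158, chr2L:8134113-8134213: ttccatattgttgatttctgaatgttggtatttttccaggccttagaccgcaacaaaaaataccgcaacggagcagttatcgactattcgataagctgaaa

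The strongest peaks with a CTCF word are shown because, of the words that passed the test, it had the largest ratio between summits and flanks, and those with a DRE or a single Motif 1 because these words mark promoters elsewhere in the list. The words searched, on both strands, were AGGTGGCGC or AGATGGCGC for CTCF, TATCGATA for the DRE and GGTCACACT for Motif 1. Of all windows of the same length that tile the distal intergenic sequence, 0.101% held a CTCF word, 0.226% a DRE and 0.0537% Motif 1. The first 4 sequences hold a CTCF word, the next pair a DRE and the last Motif 1.
peak 1005, chr3L:14111573-14111673: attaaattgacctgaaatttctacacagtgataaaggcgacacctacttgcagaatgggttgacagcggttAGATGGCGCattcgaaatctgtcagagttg
peak 1792, chrX:4507267-4507367: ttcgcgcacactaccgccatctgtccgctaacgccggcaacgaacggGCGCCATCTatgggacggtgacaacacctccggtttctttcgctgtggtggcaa
peak 1870, chr3R:21487912-21488012: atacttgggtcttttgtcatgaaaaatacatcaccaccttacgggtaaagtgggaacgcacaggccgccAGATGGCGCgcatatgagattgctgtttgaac
peak 1970, chr3R:16919211-16919311: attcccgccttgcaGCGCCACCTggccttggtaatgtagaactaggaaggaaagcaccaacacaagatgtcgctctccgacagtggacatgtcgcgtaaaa
peak 2075, chr4:63450-63550: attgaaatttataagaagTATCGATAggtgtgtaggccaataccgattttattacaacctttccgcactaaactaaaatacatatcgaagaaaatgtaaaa
peak 2506, chrX:7277183-7277283: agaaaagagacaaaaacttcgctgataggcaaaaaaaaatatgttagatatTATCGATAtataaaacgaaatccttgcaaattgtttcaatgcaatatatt
peak 5596, chr3L:11356097-11356197: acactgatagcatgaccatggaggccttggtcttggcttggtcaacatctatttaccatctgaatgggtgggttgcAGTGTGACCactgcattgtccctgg

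Distal intergenic binding was sparse for the sequence available. Bases that satisfy the positional rule made up 32.8 Mb, or 23.9% of the 138 Mb of chromosome arms, and held 28.3 peaks per Mb. Distal intronic sequence, at the same distance from a TSS but inside protein-coding genes and outside exons, held 42.0 peaks per Mb, sequence within 500 bp of a TSS held 246, and the arms as a whole 65.2. Arm 3L had 248 of the peaks, 3R 202, 2L 199, 2R 148, X 124, chromosome 4 had 7 and Y had 1. Per Mb of eligible sequence, 2L was densest with 37.8 peaks, chromosome 4 had 33.6, 3R 33.0, 3L 32.3, X 25.5, 2R 23.8 and Y 0.402. The Y sequence was also the most repeat-masked, at 59.3% of eligible bases, and how many reads map there was not tested.

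The peaks lay at a median of 5350 bp from the nearest TSS of any gene, and the farthest at 157121 bp. Of the 929, 184 (19.8%) lay at 2 to 3 kb, 251 at 3 to 5 kb, 293 at 5 to 10 kb and 201 (21.6%) beyond 10 kb. The median rank was 5415 beyond 10 kb and 5321 within 10 kb. The closest accepted peaks were 2001 bp from a TSS near Reg-2 (signal 181), 2002 bp near side-IV (209.6) and 2006 bp near CG12290 (844). The closest rejected ones were 1993 bp near LS2 (148), 1987 bp near CG4218 (1303) and 1976 bp near salr (639). Median signal was 254 for the 184 peaks at 2 to 3 kb and 278 for the 300 peaks at 1 to 2 kb outside genes, given without a test.

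Distal intergenic peaks were on the whole weak for the list. Signal, the authors' value whose scale is not stated, ran from 140.5 to 9799 with a median of 257. Distal intronic peaks had a median of 264 and a highest value of 3409, promoter peaks (summit within 500 bp of a TSS) a median of 375 and a highest value of 35927, and all reproducible peaks a median of 310.3. The median rank was 5368 for distal intergenic, 5257.5 for distal intronic and 3652.5 for promoter peaks. The 4481 strongest peaks of the list held 357 of 929 distal intergenic peaks (38.4%), 41.4% of distal intronic peaks and 59.1% of promoter peaks. The difference from promoter peaks had an odds ratio of 0.431 (95% interval 0.372 to 0.50, adjusted exact p = 4.86e-29). The difference from distal intronic peaks did not pass (odds ratio 0.884, interval 0.748 to 1.04, adjusted exact p = 0.312). These p-values and those below are from Fisher's exact test, two-sided, after Benjamini-Hochberg adjustment over all 72 comparisons made. They compare peaks within these libraries, and peaks are not replicates of a condition. When only the 4481 strongest peaks were used and split at their own middle rank, the difference from promoter peaks no longer passed (odds ratio 0.880, adjusted exact p = 0.623).

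The share of distal intergenic peaks was lowest at the top of the list. They were 174 of the 2241 strongest peaks (7.76%), 8.17% of those ranked 2242 to 4482, 11.8% of those ranked 4483 to 6722 and 307 peaks (13.7%) of the rest. Distal intronic peaks took the same course, from 14.2% of the 2241 strongest peaks to 24.9% of those ranked 6723 to 8963. Of the distal intergenic peaks, 2 were among the 100 strongest of the list and 67 (7.21%) among the 1000 strongest. For distal intronic peaks these numbers were 0 and 121 (6.95%). Of 30000 pooled peaks, 5127 lay at distal intergenic positions, and 18.1% of those were in the reproducible list (exact 95% interval 17.1 to 19.2), against 29.9% of all pooled peaks. The same share was 21.1% for distal intronic and 52.5% for promoter positions.

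**Figure D1:**
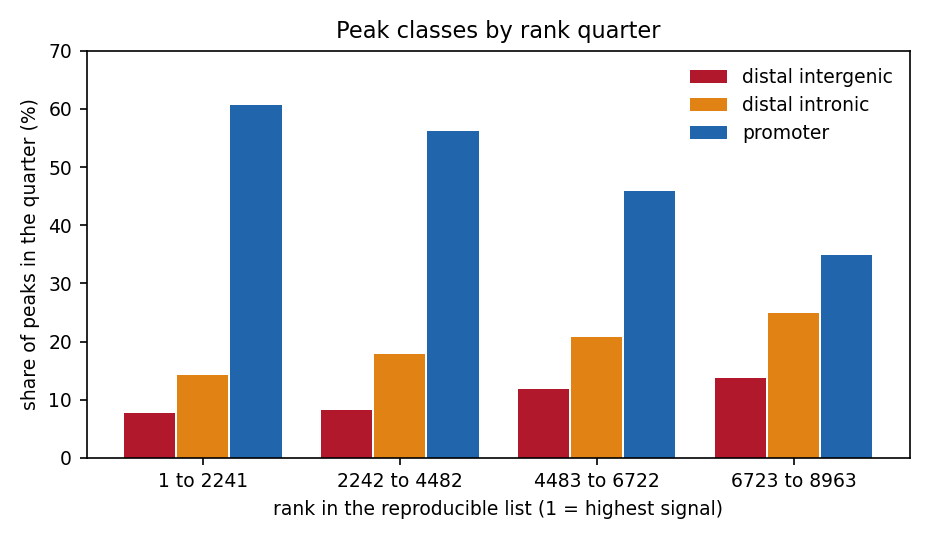
Share of peaks (%) in each of 4 rank bins of equal size of the reproducible list that were distal intergenic, distal intronic or promoter peaks. Distal intergenic peaks make up 7.76% of the strongest bin and 13.7% of the weakest, and distal intronic peaks 14.2% and 24.9%. Promoter peaks make up 60.7% of the strongest and 34.8% of the weakest.

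Nearly all of the peaks had a partner in both replicates. The list was selected for peaks reproducible between these 2 replicates. Overlap with the 30000 peaks of each is therefore no independent support. A replicate 2 peak overlapped 922 of the 929 (99.2%; all reproducible peaks 98.4%), a replicate 3 peak 919 (98.9%; all 99.2%) and both 912 (98.2%, exact interval 97.1 to 98.9; all 97.6%). These shares are near the background of the list and single out nothing about distal intergenic peaks. When a partner had to be among as many of the strongest peaks of each replicate as the reproducible list holds, 78.8% kept both (exact interval 76.02 to 81.4), against 78.9% of distal intronic, 85.8% of promoter and 82.5% of all reproducible peaks. Across the 912 peaks with both, Spearman's rho of the signals was 0.858 and Pearson's r of log2 signal 0.911, which describes peaks that share the same 2 libraries. The summit moved by a median of 9 bp to replicate 2 and 9 bp to replicate 3, and by at most 50 bp for 96.1% and 94.96% of them. The sequence windows are therefore wider than the usual error in position.

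No distal intergenic peak lacked a partner in both replicates. The strongest of the 7 without a replicate 2 peak was peak 2068 near CG11349, with signal 372 in replicate 3. The next were peak 3824 near upd2, which encodes a ligand of the JAK/STAT pathway, with 177 in replicate 3, and peak 5814 between Ubx and CG31275, with 131. A further 10 had no replicate 3 peak. Peak 958 between RYBP and Ppa, singled out after its values were seen, had signal 203 in replicate 2 and 738 in replicate 3.

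**Figure D2:**
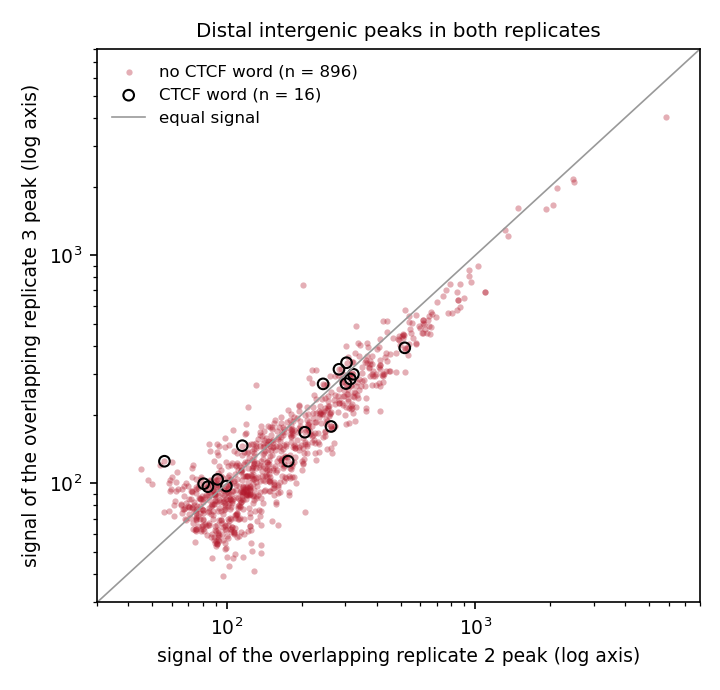
Signal of the overlapping replicate 2 peak (x) and replicate 3 peak (y), both on log axes, for the 912 distal intergenic peaks found in both replicates. The points follow a single band (Spearman's rho 0.858) that runs up to 5844 in replicate 2 and 4018 in replicate 3. The 16 peaks with a CTCF word reach up to 519.7 in replicate 2 and 392 in replicate 3. Of all 19 distal intergenic peaks with the word, 12 are among the 464 stronger by pooled signal and 7 among the 465 weaker.

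The strongest sites lay beside genes of varied kinds. Peak 36 was the strongest, with signal 9799 in the pooled list, 5844 in replicate 2 and 4018 in replicate 3. It lay in repeat-rich sequence of arm 3R, in a gap of 94375 bp between CG41128 and CG41099, with the nearest TSS 39447 bp away. Peak 100, between CycB, which encodes the mitotic cyclin B, and blw, which encodes the alpha subunit of the mitochondrial ATP synthase, had signal 2461 in replicate 2 and 2164 in replicate 3. These genes converge on a gap of 1340 bp, and the summit was 3337 bp from the CycB TSS. The next strongest peak, near CG31668, had 2486 in replicate 2 and 2091 in replicate 3. Each of these 3 peaks was among the 102 strongest of both replicates.

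Of the other 12 among the 15 strongest, peak 135 lay between slp1 and slp2, which encode forkhead factors of segmentation, with signal 1921 in replicate 2 and 1593 in replicate 3. Peak 126 was in the gap between CG13323, the nearest gene, and Su(z)2, and peak 331 in the gap between CG13321, the nearest gene, and Psc. Su(z)2 and Psc encode related Polycomb group proteins, and both gaps are on arm 2R. Peak 343 was nearest to noc, a zinc-finger gene, and peak 304 to CG12684, in the gap it shares with the zinc-finger gene peb. Peak 385 lay 5266 bp from ptc, the Hedgehog receptor gene. Signal at peak 385 was 870.0 in replicate 2 and 745 in replicate 3. The remaining ones were peaks 114, 158, 201, 207, 332 and 352, nearest to CG43131, CG8668, Slmap, CG43401, CG43245 and CG5103. On chromosome 4 the strongest was peak 597, between the kinase gene Asator and the homeobox and zinc-finger gene zfh2. A nearest gene is a matter of position here, and no measurement ties a peak to it.

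Many of the peaks came in groups within the same gap. The 929 peaks fell into 489 gaps between neighbouring protein-coding genes: 291 gaps held 1 peak, 100 held 2 and 98 held 3 or more, which together had 438 peaks. Gap length ran from 257 to 710734 bp with a median of 25125 bp per peak. The fullest gap, 47937 bp between hng3 and CG13898 on 3L, held 15 peaks ranked from 440 to 7955. The gap between NijA and CG43245 on 3L (75047 bp) held 11, and 3 gaps held 9 each, one of them between drm and CG43815 on 2L (27786 bp), the others between Ids and sty and between Or67d and CG12362 on 3L. The gene drm, which encodes a zinc-finger protein of the odd-skipped family, adjoins the gap on 2L, whose best peak ranked 3103.

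Peaks were spaced more widely than promoter or distal intronic peaks, without a test. Another reproducible peak of any kind lay within 5 kb of 568 distal intergenic peaks (61.1%), against 73.6% of all reproducible peaks, 68.0% of distal intronic, 76.0% of promoter and 60.6% of the 71 exonic peaks. The median distance to the next peak was 3321 bp for distal intergenic, 3489 bp for exonic and 2254 bp for all reproducible peaks. The flanking genes were divergent for 25.4% of the peaks, convergent for 22.9% and in tandem for 51.7%, while of the eligible bases 20.01% lay in divergent, 23.0% in convergent and 51.3% in tandem gaps. Introns of non-coding genes held 51 of the peaks (5.49%), with a median signal of 224 inside them and 261 outside. Named peaks inside such introns included peaks 304 and 1792 in lncRNA:CR32773, peak 1970 in lncRNA:iab8 and peak 5814 in lncRNA:bxd. They also included peak 2506 in lncRNA:CR44357 and peak 1418 in lncRNA:CR44931.

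Summits were rich in A and T. The median GC content of the window from 50 bp before to 50 bp after the summit was 32.7%, against 42.6% in windows 500 bp to either side and 41.6% in all 318434 windows tiling the same kind of sequence. The summit window was lower than its own flanks at 677 of 929 peaks (72.9%), with a median difference of -8.42 points. Single summits ran from 17.8% to 71.3%. The mean fell to 34.2% ± 0.308 at the summit (standard error over peaks), stood at 44.0% and 44.3% at 150 bp to either side, and was 41.5% and 40.9% at 1000 bp. Distal intronic peaks had the same median of 32.7% and promoter peaks 40.6%.

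**Figure D3:**
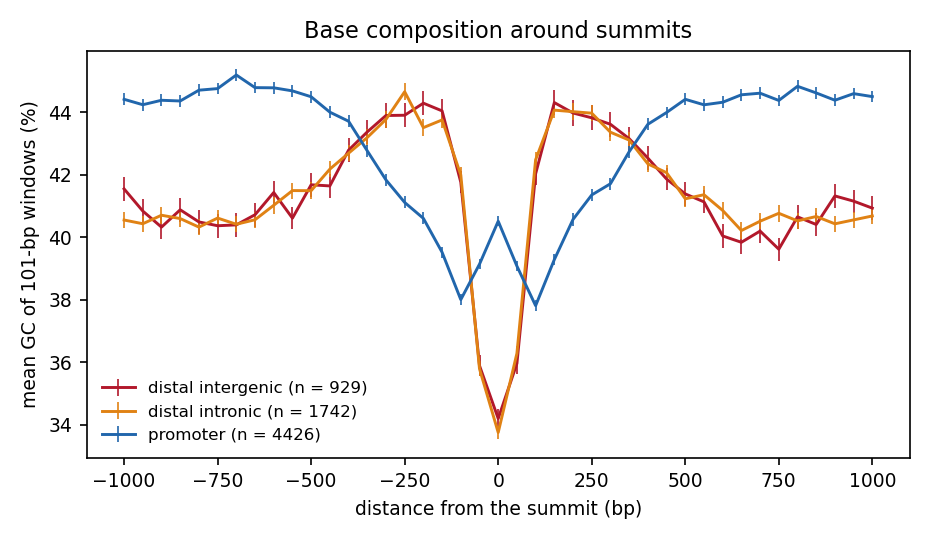
Mean GC content (%) of windows with 50 bp to either side of their centre, by distance from the summit (bp), with bars for the standard error over peaks, for distal intergenic, distal intronic and promoter peaks. Distal intergenic summits lie at 34.2%, between shoulders of 44.0% and 44.3% at 150 bp, and their curve runs close to that of the distal intronic peaks.

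Of 22 motif words searched in the same windows, 6 were more frequent at distal intergenic summits than in their own flanks, and 3 were less frequent past the adjusted threshold of 0.05. The higher ones were the CTCF word, the DRE, the TATA box TATAAA, the Initiator core TCAGT, the GATA word AGATAA and the nuclear receptor word GGTTCA. The lower ones were the CA repeat CACACACA, a run of 8 A and the Pho core GCCATT, which is named for a Polycomb recruiter. The BEAF-32 core CGATA forms part of the DRE, so those 2 words overlap. A match is a description of letters and not evidence of binding.

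Of the words that passed, the CTCF word had the largest ratio. It stood in 19 of 929 summit windows (2.05%) and in 1 of 1858 flank windows (0.0538%), an odds ratio of 38.7 (95% interval 6.14 to 1612, adjusted exact p = 1.08e-07). Around the summits of the single replicates it stood in 15 of 922 windows (1.63%) in replicate 2 and 16 of 919 (1.74%) in replicate 3, with 0.0542% and 0.0544% in their flanks. It was also more frequent than at distal intronic summits (0.804%, odds ratio 2.58, interval 1.22 to 5.58, adjusted exact p = 0.0310) and at promoter summits (0.904%, odds ratio 2.29, interval 1.25 to 4.07, adjusted exact p = 0.0209). The difference from flanks passed under all 12 alternatives, 2 of which left no flank window with the word and hence no finite odds ratio (a TSS distance of 5000 bp, adjusted exact p = 0.000127, and no masked base in the window, 8.06e-07). The differences from both other classes rest on few windows and were lost in several alternatives, among them replicate 2 alone, with adjusted exact p = 0.285 against distal intronic and 0.478 against promoter peaks.

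The other 5 words gave smaller ratios. The DRE stood in 1.08% of summits and 0.215% of flanks (odds ratio 5.04, interval 1.45 to 22.1, adjusted exact p = 0.0178). The GATA word stood in 9.15% and 5.65% (odds ratio 1.68, interval 1.23 to 2.29, adjusted exact p = 0.00466), the nuclear receptor word in 3.44% and 1.72% (2.04, interval 1.20 to 3.46, adjusted exact p = 0.0257), and the Initiator core in 20.2% and 15.1% (1.42, interval 1.15 to 1.75, adjusted exact p = 0.00473). The TATA box stood in 19.6% of summits and 12.6% of flanks (odds ratio 1.69, interval 1.36 to 2.10, adjusted exact p = 1.40e-05). Within groups by GC content, chosen after values were seen and given without a test, the TATA box stood in 26.2% of distal intergenic summits and 26.4% of all distal intergenic windows under 35% GC, in 10.6% and 10.2% at 35 to 45%, and in 7.41% and 2.97% over 45%. The GATA word stood in 9.52% and 9.41% under 35% GC, in 10.2% and 5.81% at 35 to 45%, and in 4.63% and 2.96% over 45%. The DRE was above all windows in each group, with 0.718% and 0.377% under 35% GC, 1.89% and 0.256% at 35 to 45%, and 0.926% and 0.0737% over 45%, the last from 1 summit. With replicate 3 alone the calls for the DRE, GATA and nuclear receptor words were lost (adjusted exact p 0.197, 0.194 and 0.0634), with replicate 2 alone those for the DRE and the nuclear receptor word (0.0706 and 0.185), and that for the TATA box was lost among windows without a masked base (adjusted exact p 0.910). Of the less frequent words, the run of A stood in 3.23% of summits and 6.51% of flanks (odds ratio 0.479, adjusted exact p = 0.00163), the Pho core in 4.95% and 7.75% (0.620, adjusted exact p = 0.0210), and the CA repeat in 1.18% and 2.74% (0.425, adjusted exact p = 0.0310).

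Of the 22 words, 4 were less frequent at distal intergenic than at promoter summits. The DRE stood in 1.08% of distal intergenic and 8.54% of promoter summits (odds ratio 0.117, interval 0.0552 to 0.218, adjusted exact p = 1.27e-19). The share was also lower for Motif 1, which stood in 0.323% and 4.84% (0.0638, interval 0.0130 to 0.1896, adjusted exact p = 2.00e-13), the BEAF-32 core in 13.5% and 34.3% (0.298, interval 0.243 to 0.364, adjusted exact p = 2.88e-38), and the E-box CAGCTG in 2.05% and 8.74% (0.218, interval 0.129 to 0.347, adjusted exact p = 4.14e-14). These 4 calls held in each alternative run. Against their own flanks, the DRE was more frequent, as given above. Motif 1 stood in 0.323% of summits and 0.0538% of flanks, the BEAF-32 core in 13.5% and 11.2%, and the E-box in 2.05% and 3.55%. None of these passed (adjusted exact p 0.250, 0.236 and 0.104). The Initiator core stood in 20.2% of distal intergenic and 19.1% of promoter summits, which did not pass either (odds ratio 1.07, adjusted exact p = 0.629). The TATA box was more frequent at distal intergenic (19.6%) than at promoter summits (12.1%, odds ratio 1.77, interval 1.46 to 2.13, adjusted exact p = 7.66e-08). So was the GATA word (9.15% and 6.33%, odds ratio 1.49, adjusted exact p = 0.0124), a call lost with replicate 3 alone (adjusted exact p = 0.102). Against distal intronic summits only the CTCF word and the DRE differed (DRE 1.08% and 0.287%, odds ratio 3.78, interval 1.17 to 14.1, adjusted exact p = 0.0434), and the call for the DRE was lost in most alternatives, such as either replicate alone (adjusted exact p 0.285 and 0.0600).

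**Figure D4:**
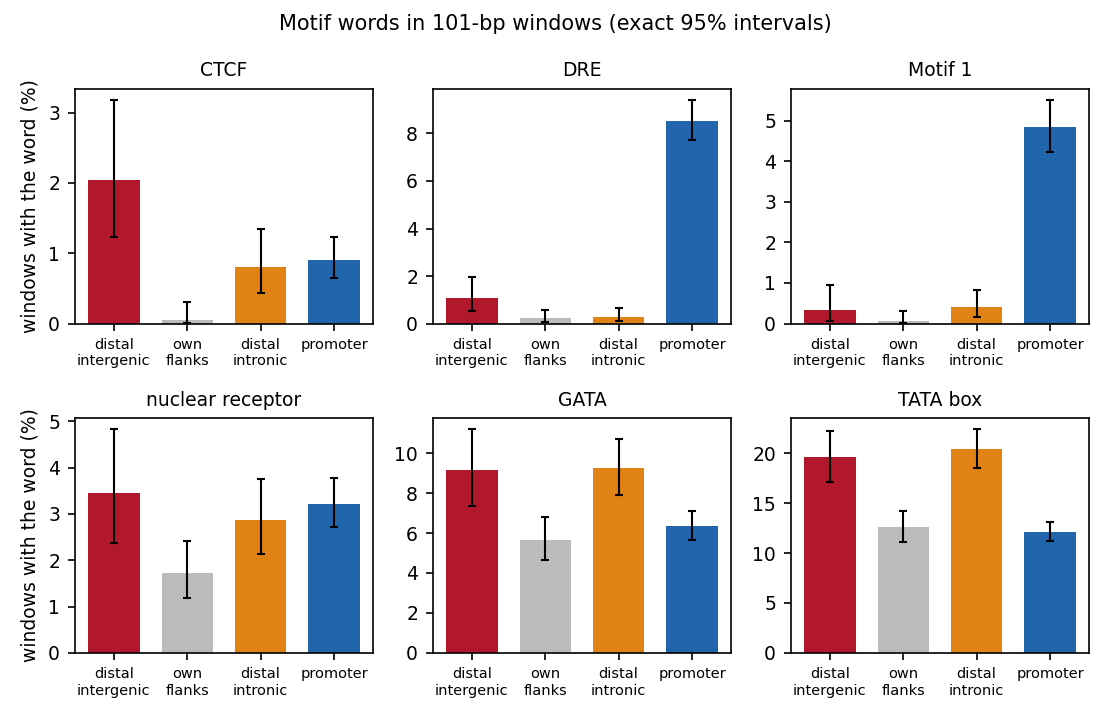
Share of windows (%), 50 bp to either side of their centre, holding each of 6 motif words at distal intergenic summits, in their own flanks, and at distal intronic and promoter summits, with exact 95% binomial intervals that treat windows as independent. The CTCF word stands in 2.05% of distal intergenic summits and 0.0538% of flanks, while the DRE and Motif 1 stand highest at promoter summits.

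The CTCF word, itself rich in G and C, stood mostly in the summits richest in GC. It stood in 12 of 108 distal intergenic summits over 45% GC (11.1%, exact interval 5.87 to 18.6), in 6 of 264 (2.27%) at 35 to 45% and in 1 of 557 (0.180%) under 35%. Of all distal intergenic windows over 45% GC, 0.166% held it. Among GC-rich summits of the other classes it stood in 5.75% of distal intronic (interval 2.79 to 10.3) and 1.86% of promoter peaks. The GC groups were chosen after the values were seen and are given without a test. The 2 forms were equally common, each in 11 of the 929 summits.

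**Figure D5:**
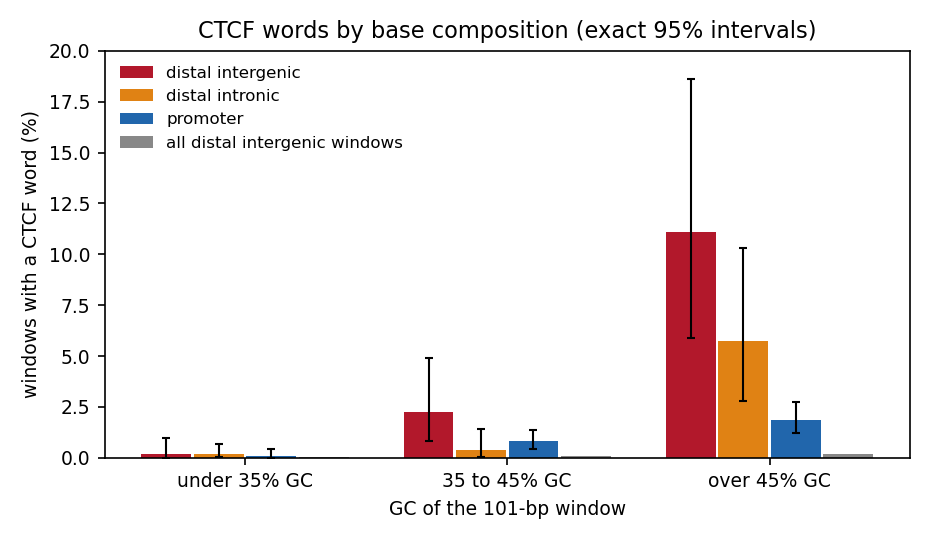
Share of windows (%) with a CTCF word in 3 groups by GC content of the window, for distal intergenic, distal intronic and promoter summits with exact 95% intervals, and for all windows tiling distal intergenic sequence. In the group over 45% GC the share is 11.1% of distal intergenic summits and 0.166% of all distal intergenic windows.

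The CTCF word lay in 19 peaks. Peak 1005, between the paralogous genes Sox21a and Sox21b, was the strongest, with signal 519.7 in replicate 2 and 392 in replicate 3. Peak 1792 was nearest to CG3556, in the gap it shares with bi, with 303 in replicate 2 and 338 in replicate 3. Peak 1870 was nearest to Fancm, in the gap it shares with the homeobox gene C15, with 323 in replicate 2 and 300.4 in replicate 3. Peak 1970 lay in the bithorax complex and was nearest to Abd-B, a Hox gene of the posterior abdomen, with 282 in replicate 2 and 316 in replicate 3. Peak 5814, nearest to CG31275 in the gap it shares with the Hox gene Ubx, had no replicate 2 peak and signal 131 in replicate 3. Peak 4648 lay between the cadherin genes CadN and CadN2. Some lay in long gaps, such as peak 7650 in 117057 bp between vvl and Prat2 and peak 6818 in 138193 bp between Or67d and CG12362. The peaks named here other than peak 1005 were picked after their values were seen. The median distance of the word from the summit was 21 bp, and none lay beyond 40 bp. Of these 19 peaks, 3 had no replicate 2 peak, as against 7 of all 929.

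The DRE lay in 10 distal intergenic summits. The strongest were peak 2075 on chromosome 4, between ci, which encodes the transcription factor of Hedgehog signalling, and RpS3A, and peak 2506 near CG1677. Peak 2075 had signal 315 in replicate 2 and 269.8 in replicate 3, and peak 2506 had 282 in replicate 2 and 224 in replicate 3. Others, picked after their values were seen, included peak 7328 between the neuroligin genes Nlg3 and Nlg1 and peak 5543 beside the histone gene cluster. Motif 1 lay in 3: peak 135, peak 5596 near CG6163, and peak 5689 in the gap of hng3.

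Few summits lay in transposable elements, as across the whole list. Repeat-rich regions held a larger share of distal intergenic than of distal intronic or promoter peaks, a call that depends on how rich is defined. The summit base was masked as repeat in the reference at 159 peaks (17.1%), against 18.5% of distal intronic (adjusted exact p = 0.579) and 12.04% of promoter peaks (odds ratio 1.51, interval 1.23 to 1.84, adjusted exact p = 0.000417), while 31.1% of eligible bases were masked. Repeat-rich bins of 100 kb, with at least 30% masked bases or on chromosome 4 or Y, held 64 distal intergenic peaks (6.89%), 4.02% of distal intronic (odds ratio 1.77, interval 1.23 to 2.54, adjusted exact p = 0.00778) and 3.999% of promoter peaks (1.78, interval 1.30 to 2.40, adjusted exact p = 0.00163). With bins of at least 50% masked bases the differences no longer passed (odds ratio 3.02 against distal intronic, adjusted exact p = 0.199, and 0.491 against promoter peaks, adjusted exact p = 0.177). Chromosome 4 and Y, repeat-rich by this rule, held 0.208 and 2.49 Mb of the 32.8 Mb of eligible sequence, and 7 and 1 of the peaks. The share of all eligible sequence in repeat-rich bins was not computed, so no excess over the available sequence is shown. Masking and gene density are not independent. Annotated transposable elements covered 12.1% of eligible bases and held 7 of the 929 summits (0.753%, exact interval 0.303 to 1.55). That is near the 0.591% of all reproducible peaks, with 0.631% of distal intronic and 0.294% of promoter peaks. The strongest of the 7 were peak 1512 in a GATE element and peak 1695 in an INE-1 element. Whether reads map uniquely there was not tested.

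Genes of embryonic patterning were among those nearest to distal intergenic peaks. Over all genes, 562 of 13968 protein-coding genes (4.02%) were nearest by TSS to at least 1 such peak. Only 3631 of the 13968 had any eligible sequence nearest to them, and the others could not be nearest to a peak. Such sequence was more common in the lists that follow, so 4.02% is a low background for them. It lay nearest to 18 of the maternal, gap and pair-rule genes and 15 of the segment polarity and signalling genes. The same held for 10 mesoderm and muscle, 14 appendage and 9 neural genes. Of the maternal, gap and pair-rule genes, 9 of 21 (42.9%) were nearest to a total of 24 peaks: ems, ftz, hb, hry, kni, oc, odd, opa and slp2. Of the segment polarity and signalling genes, 8 of 22 (36.4%) were nearest to 18 peaks: Delta, Ser, Wnt4, en, ptc, ths, vn and wg. Of the mesoderm and muscle regulators 4 of 13 (Doc1, Doc2, bap and sna), of the imaginal and appendage selectors 5 of 19 (Lim1, bab1, hth, tsh and tup), and of the neural determination genes 3 of 17 (D, Dr and SoxN) were nearest to a peak. These are counts without a test, and they carry the length of sequence around each gene.

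Peak counts were then set against the eligible sequence nearest to the same genes, a scale chosen after the first values were seen. The density was above the 28.3 per Mb over all genes in each of these 5 lists, by little for the appendage selectors. It was 129 per Mb for the mesoderm and muscle regulators, from only 6 peaks in 46.6 kb. The segment polarity and signalling genes had 101.04 (18 peaks in 178 kb) and the maternal, gap and pair-rule genes 99.9 (24 in 240 kb). The neural determination genes had 63.3 (8 in 126 kb) and the appendage selectors 32.1 (9 in 280 kb). These densities were not tested. The Hox genes had 17.1 per Mb, from 1 peak nearest to Abd-B, although 5 of the 8 flank a gap with a peak. Among the peaks near patterning genes, peaks 605 and 759 were nearest to oc, a homeobox gene of head patterning, with signal 670.1 and 612 in replicate 2 and 554 and 455 in replicate 3. Peak 1362 lay in the gap beside the pair-rule gene odd, with signal 455 in replicate 2 and 309 in replicate 3, and peak 1412 near the head gap gene ems had 449 in replicate 2 and 310.2 in replicate 3. Peak 1892, 11969 bp from the TSS of wg, which encodes the Wnt ligand Wingless, had 313 in replicate 2 and 301 in replicate 3. Peak 1418, 17474 bp from the TSS of the pair-rule gene ftz, had 438 in replicate 2 and 309 in replicate 3. Peak 660 lay 2096 bp from CG5194 in the gap beside the T-box gene Doc2, with 662 in replicate 2 and 482 in replicate 3. Peak 649 near the LIM-homeobox gene tup had 642 in replicate 2 and 521 in replicate 3.

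Of the nuclear genes of the respiratory chain, 3 of 26 (11.5%; all protein-coding genes 4.02%) were nearest to a total of 4 peaks. Eligible sequence lay nearest to 9 of the 26, and to 3631 of all 13968 genes. They were ND-20L, RFeSP, which encodes the Rieske iron-sulphur subunit of complex III, and SdhB of complex II. The density was 19.1 peaks per Mb of their 209.9 kb of eligible sequence, against 28.3 over all genes. Peak 3004 lay 15593 bp from the RFeSP TSS, with signal 252 in replicate 2 and 188 in replicate 3, in the gap it shares with chinmo. Of the muscle structural genes, 4 of 17 were nearest to 1 peak each (Act57B, Act87E, Zasp52 and bt), a density of 374 per Mb that rests on 10.7 kb of eligible sequence. The insulator and promoter-binding protein genes (14) and the neuronal function genes (14) were nearest to none, and had 0.671 and 19.0 kb of such sequence. Peaks 1682 and 2852 lay in gaps beside the neuronal genes futsch and brp but nearer to others.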

How the data were processed

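Per the labels, immunoprecipitated chromatin of whole embryos had been sheared by sonication to 200 to 800 bp, and peaks are on dm6. The authors deposited peak lists of 30000 peaks for replicate 2, replicate 3 and the pooled replicates, and a reproducible list of 8963, which were the strongest pooled peaks. The aligner and peak caller were not given in the sources used here. Each deposited peak carries a signal value of unstated scale, used here for ranks within a list, and a −log10 q-value, not used. Peak lists leave the read depth unknown, so intervals cover counting of peaks only, and their number limits the precision.

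The summits, sequence windows, distances and classes were computed with Ensembl release 115 (BDGP 6.54) and the RefSeq release 6 assembly. Windows ran 50 bp to either side of the summit, flanks were centred at 500 bp to either side, and overlap needed 1 bp. Shares were compared by Fisher's exact test, two-sided, with conditional odds ratios and exact 95% intervals, adjusted by Benjamini-Hochberg over 72 comparisons at 0.05. Gene lists, gaps, spacing and base composition were described without tests, and older symbols in the lists (8) were read as current ones through RefSeq synonyms. Alternatives changed the TSS distance, the annotation, the list, the replicate used, the window and the flanks. Leaving out summits in transposable elements, groups by GC content, eligible sequence per gene and each CTCF word alone were added after values were seen. The peaks, lists and motifs were chosen with earlier results of these data known. Peaks named were taken from the 15 strongest, the strongest per arm or motif, those at the 2000 bp limit, those missing in a replicate, those of the 3 fullest gaps, and up to 4 per gene list; not all of these are reported here. Python 3.11.15, NumPy 2.4.6, SciPy 1.17.1 and matplotlib 3.10.9 were used, and the scripts were tested on simulated data. The 2 samples are biological replicates per the labels and belong to 1 group, so no conditions were compared.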

Additional observations from a re-analysis of the deposited data

Results flagged for a closer look

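Pooled peaks at distal intergenic positions that ranked below the reproducible list, which the comparisons of the report do not use, held 2 of the 22 motif words more often and 1 less often than their own flanks. The CTCF word stood in 20 of 4198 such summits (0.476%) and in 0.107% of 8396 flank windows (odds ratio 4.46, 95% interval 1.94 to 11.1). By Fisher's exact test, two-sided, p was 0.000100, and 0.00110 after Benjamini-Hochberg adjustment over 22 words. The Su(Hw) word TGCATAC stood in 2.05% of these summits and in 1.24% of flanks (odds ratio 1.67, interval 1.24 to 2.25, adjusted exact p = 0.00450). At the 929 reproducible peaks the Su(Hw) word stood in 2.26% of summits and 1.02% of flanks and did not pass (odds ratio 2.24, interval 1.14 to 4.42, adjusted exact p = 0.0523). It passed in 3 of 12 alternatives, namely replicate 2 alone (adjusted exact p = 0.00646), 100 bp to either side of the summit (0.00253) and flanks at 1000 bp (0.0169). The run of A was less frequent, in 4.07% of summits and 5.87% of flanks (odds ratio 0.681, interval 0.566 to 0.815, adjusted exact p = 0.000341). The DRE stood in 0.286% of the weaker summits and 0.286% of their flanks. What gives these peaks their signal was not tested.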

How the results depend on the processing

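No paired analysis was possible because the series holds 1 group. The 929 peaks became 494 with a TSS distance of 5000 bp, 357 among the 4481 strongest reproducible peaks, and 838 to 973 with 1 replicate left out. Their median rank, as a share of the list, was 59.9% and moved to 58.9% with 1000 bp, 60.7% with 5000 bp, 59.3% without the bodies of non-coding genes, 51.1% among the 4481 strongest, and 60.1% to 60.6% with 1 replicate. Support in both replicates was 96.2% to 96.9% with 1 replicate's own list and 78.8% with the strongest peaks only. The 9 motif calls against flanks became 5 with 5000 bp, 3 among the 4481 strongest, 5 with 25 bp to either side, 5 without masked bases, and 6 to 8 with 1 replicate left out. The odds ratio of repeat-rich bins against distal intronic peaks (1.77) no longer passed with 5000 bp (1.65), among the 4481 strongest (1.80) or with 50% masking (3.02), and was 1.69 to 1.77 with 1 replicate. Against promoter peaks it turned round to 0.491 with 50% masking. The odds ratio for the share above the middle rank of the list used, against promoter peaks, was 0.880 with the 4481 strongest as the list. It was 0.439 to 0.471 with 1 replicate. Of the peaks, 54.2% had another within 5 kb with 5000 bp and 38.4% among the 4481 strongest, 35.6% had one within 2 kb, 78.04% within 10 kb, and 59.6% to 59.7% with 1 replicate. Genes nearest to a peak numbered 306 with 5000 bp, 277 among the 4481 strongest, 870 when either flanking gene was counted, and 520 to 590 with 1 replicate. There were 261 alternative values for single words, masked summits, repeat-rich bins against promoter peaks, GC content and rank against distal intronic peaks. Of these, 204 were classed as unchanged, 52 lost the call and 3, all of the Su(Hw) word against flanks, gained it. Where neither value passed, unchanged did not require the same direction. The odds ratio for rank against distal intronic peaks, for example, went from 0.884 to 1.20 among the 4481 strongest. The cause of these changes was not tested. Few peaks hold a rare word, which limits the comparisons of CTCF and DRE words between classes.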

Other observations

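The short words most in excess at distal intergenic summits were rich in A and T, while those most in deficit varied in base composition. Of 2080 6-mers, counted with their reverse complements, the 10 with the largest excess over flanks in odd-ranked peaks were made of A and T in 5 or 6 of their 6 bases, led by AAATAT, in 34.2% of summits and 18.7% of flanks. In even-ranked peaks AAATAT stood in 27.8% of summits and 19.1% of flanks, and all 10 were again higher at summits. The 5 with the largest deficit were again lower at summits in even-ranked peaks. They were TGGCCA and GGCCAA, with 2 A or T bases each, TGCCAA with 3, GGAAAA with 4 and CAAAAA with 5. In even-ranked peaks TGGCCA stood in 1.94% of summits and 6.14% of flanks. These are descriptions without a test.

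Single genes could gather many peaks. CG43245 was nearest to 12, with ranks from 332 to 8901, hng3 to 10, CG13898 to 9, and Ids and IntS3 to 8 each. Peak width ran from 82 to 547 bp with a median of 223 bp, and 271 of the 929 peaks were exactly 330 bp wide. That width was found in 20.3% of distal intergenic peaks under 35% GC and in 52.8% of those over 45% GC. The other classes differed in the same direction, with 21.2% and 54.0% of distal intronic and 15.9% and 34.7% of promoter peaks. The median signal of distal intergenic peaks was 259.6 under 35% GC, 257 at 35 to 45% and 226 over 45%.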
